A study of Triticum aestivum with 42 samples.

Results

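The autonomous pathway of flowering is represented on the Affymetrix Wheat Genome Array by 8 probe-sets out of 61179. They were taken by identifier from the study's list of wheat counterparts of Arabidopsis flowering genes, with 1 probe-set for FVE (Ta.3385.1.A1_at), 1 for LD (TaAffx.37264.1.S1_at) and 6 for FCA. The latter are called FCA-a (Ta.5855.2.S1_x_at), FCA-b (TaAffx.98485.9.S1_x_at), FCA-c (TaAffx.98485.5.S1_s_at), FCA-d (TaAffx.98485.5.S1_x_at), FCA-e (TaAffx.98485.6.S1_at) and FCA-f (TaAffx.98485.10.A1_x_at). The study's list holds an LD probe-set but its text counts none on the array, so what the LD probe-set measures is less certain. The series measured transcript abundance in leaf and in crown of the wheat varieties Harnesk, Paragon and Solstice on 42 arrays. Crown is the shoot apex with some of the stem below it and the bases of immature leaves. Harnesk plants were sampled under vernalisation at 3 weeks (16°C by day and 14°C by night, 14 h of light, PAR 280), 5 weeks (14°C and 10°C, 12 h, PAR 185) and 9 weeks (8°C and 4°C, 9 h, PAR 95), with 2 arrays per tissue and week. Control plants were of the variety Solstice and saw light decline in the same steps but stayed at 16°C and 14°C throughout, and each of their tissues was hybridised to 1 array per week, so variety and cooling cannot be told apart between Harnesk and the controls. Each array held RNA pooled from several plants, so that p-values refer to variation among pools. The exception is control crown against leaf, where no condition has 2 pools.

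In Arabidopsis, the genes of the autonomous pathway promote flowering whatever the day length, by holding down the floral repressor FLC. FCA is an RNA-binding protein that acts in the processing of RNA at the FLC locus, FVE is a WD-repeat protein of histone-modifying complexes, and LD is a homeodomain protein. The study names no cereal counterpart of FLC, and the roles given are those of the Arabidopsis genes.

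The values are ratios to each probe-set's own median, so a level cannot be set against the level of another probe-set. A ratio of 1 is that median. Changes are differences of log2 ratios with their standard error (SE), and a probe-set was called at an adjusted p below 0.05 in limma (Benjamini-Hochberg, taken across the 61179 probe-sets). Of the 6 FCA probe-sets, FCA-a belongs to 1 transcript cluster of the array's design and the other 5 to another. The ending x_at, carried by FCA-a, FCA-b, FCA-d and FCA-f, marks probes that may also bind other transcripts, and the ending s_at of FCA-c marks probes shared by several related transcripts. How the signal of each divides between the wheat homoeologues is therefore uncertain. The annotation used here gave a gene symbol to 1 of the 8, LOC543096 for FCA-a.

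The 24 arrays of Paragon and of cooled Solstice were not used, because their rows do not follow the identifier column. Neighbouring rows of one transcript cluster were more alike than other neighbours by 0.554 to 0.664 in rank correlation on the 12 Harnesk arrays and by 0.411 to 0.621 on the 6 control arrays, but on none of the 24. Among the controls, the leaf array of 9 weeks stood apart: its mean rank correlation with the other leaf controls was 0.101, against 0.436 and 0.445 for those arrays. Harnesk arrays of one tissue correlated at 0.644 to 0.751 on average. The tissue labels matched their markers. All 10 probe-sets of photosynthetic leaf genes were higher in Harnesk leaf, with mean ratios of 2.31 to 3.68 against 0.272 to 0.357 in crown. Of 16 histone probe-sets that mark dividing cells, 15 were higher in crown, with mean ratios of 17.7 to 22.2 against 0.145 to 0.223 in leaf. None of these 26 was at the lowest value throughout. Control samples were ordered the same way, at 0.977 to 1.34 in leaf against 0.28 to 0.444 in crown for leaf markers and at 0.847 to 0.878 against 92.3 to 130 for crown markers. No marker of the shoot meristem itself had a match in the annotation.

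FVE transcripts were far more abundant in crown than in leaf. In Harnesk leaf, FVE read 0.274 and 0.286 at 3 weeks, 0.300 and 0.291 at 5 weeks, and 0.504 and 0.498 at 9 weeks. In crown the arrays read 2.523 and 2.803, 2.684 and 2.872, and 2.268 and 2.333 at the same weeks. Every crown array thus lay above every leaf array, and the arrays of each pair were close. The mean crown minus leaf difference was 2.89 (SE 0.07, adjusted p = 5.5e-13), a fold of 7.43, and 5.2% of all probe-sets differed more. It was 9.5-fold at 3 weeks, 9.4-fold at 5 weeks and 4.59-fold at 9 weeks, and each was called.

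**Figure D1:**
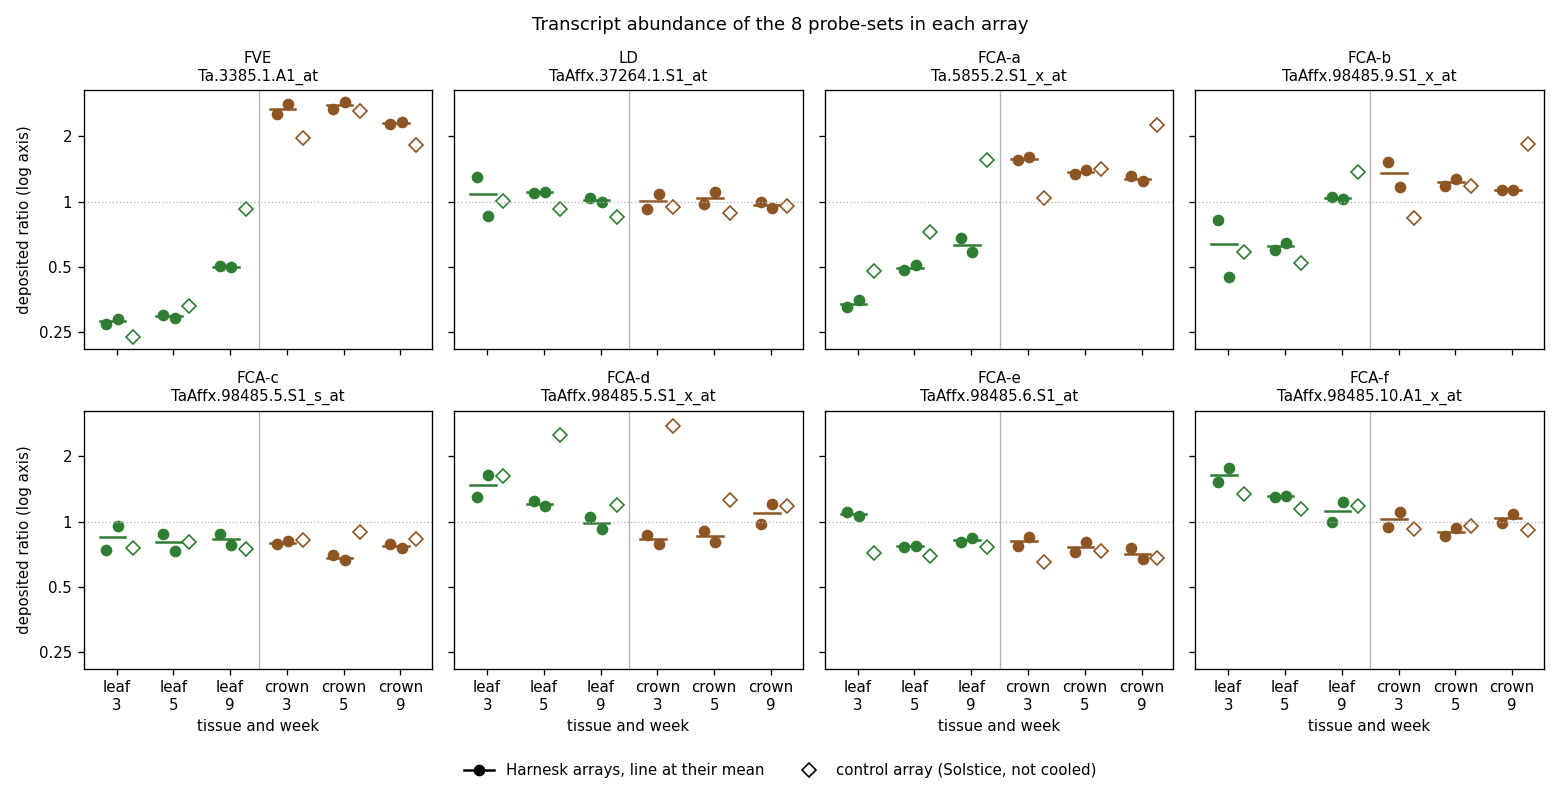
Deposited ratio (log axis) of the 8 probe-sets by tissue and week. Filled circles are Harnesk arrays with a line at their mean and open diamonds are the single control arrays. FVE lies between 0.274 and 0.504 in Harnesk leaf and between 2.268 and 2.872 in crown, whereas LD stays between 0.86 and 1.299 in both tissues.

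LD showed no such difference. In leaf, LD read 1.299 and 0.860 at 3 weeks, 1.094 and 1.112 at 5 weeks, and 1.042 and 0.994 at 9 weeks. In crown it read 0.923 and 1.088, 0.972 and 1.106, and 0.994 and 0.931. The tissues overlapped, and the widest gap was that between the pair of leaf arrays of 3 weeks. The mean crown minus leaf difference was -0.08 (95% interval -0.30 to 0.14, adjusted p = 0.473), so a tissue difference as large as that of FVE lies outside the interval.

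The FCA probe-sets differed in which tissue was higher. FCA-a was higher in crown, where it read 1.549 and 1.604 at 3 weeks, 1.340 and 1.396 at 5 weeks, and 1.307 and 1.238 at 9 weeks. Its leaf arrays read 0.327 and 0.350, 0.484 and 0.509, and 0.679 and 0.586, and no leaf array reached a crown array. The mean difference was 1.56 (SE 0.07, adjusted p = 3.5e-10), a fold of 2.96, and it was 4.66-fold at 3 weeks, 2.76-fold at 5 weeks and 2.02-fold at 9 weeks, each called. FCA-b went the same way less strongly, with 1.526 and 1.169, 1.180 and 1.272, and 1.125 and 1.128 in crown. In leaf it read 0.821 and 0.447, 0.598 and 0.643, and 1.054 and 1.028, so that the tissues were apart at 3 and 5 weeks and nearly level at 9 weeks. The mean difference was 0.75 (SE 0.13, adjusted p = 0.00021), with 2.2-fold at 3 weeks, 1.98-fold at 5 weeks and, not called, 1.08-fold at 9 weeks.

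A further 3 FCA probe-sets were called lower in crown. FCA-f read 1.524 and 1.769, 1.299 and 1.320, and 0.999 and 1.238 in leaf against 0.945 and 1.105, 0.856 and 0.938, and 0.988 and 1.089 in crown, a mean difference of -0.44 (SE 0.09, adjusted p = 0.00044). FCA-d read 1.302 and 1.641, 1.250 and 1.175, and 1.055 and 0.922 in leaf against 0.869 and 0.787, 0.903 and 0.806, and 0.980 and 1.202 in crown, a mean difference of -0.40 (SE 0.09, adjusted p = 0.0015). In both, the leaf arrays were above the crown arrays at 3 and 5 weeks and overlapped with them at 9 weeks. FCA-e was above its crown arrays mainly at 3 weeks, with 1.109 and 1.059 in leaf and 0.774 and 0.854 in crown. Its other leaf arrays read 0.768 and 0.776 at 5 weeks and 0.809 and 0.841 at 9 weeks, against 0.724 and 0.804, and 0.753 and 0.671 in crown, and the mean difference was -0.22 (SE 0.07, adjusted p = 0.017). That last call was lost when each array was centred on its median (-0.13, adjusted p = 0.155). It was lost under 6 of 21 alternatives in all, against 2 of 21 each for FCA-b, FCA-d and FCA-f. The remaining probe-set, FCA-c, read 0.736 to 0.952 across the leaf arrays and 0.666 to 0.815 across the crown arrays, with a mean difference of -0.14 (95% interval -0.32 to 0.05, adjusted p = 0.163). With the arrays quantile normalised it was called lower in crown, at -0.40 for the mean of the weeks (adjusted p = 0.000619) and -0.63 at 5 weeks (adjusted p = 0.00184), and without the first leaf array of 3 weeks at -0.20 (adjusted p = 0.0359).

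In all, 3 of the 8 probe-sets were called higher and 3 lower in crown, beside 74.2% of all probe-sets called, and only FVE and FCA-a passed 2-fold. The count of called members is thus near that background. By week, 6 of 8 were called at 3 weeks (65.5% of all), 5 at 5 weeks (58.5%) and 2 at 9 weeks (43.5%), FVE and FCA-a. The median of the members was -0.11 for the mean of the weeks, beside -0.16 for all probe-sets. An indirect measure of RNA quality moved with tissue, taken from control probe-sets whose values are also ratios to their own medians. The mean log2 difference between the 3′ and 5′ control probe-sets was -0.33 to -0.18 in leaf and 0.11 to 0.29 in crown, and its part in the tissue differences was not tested. In mixed tissue such as crown, fewer cells of a type and less RNA per cell cannot be told apart.

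**Figure D2:**
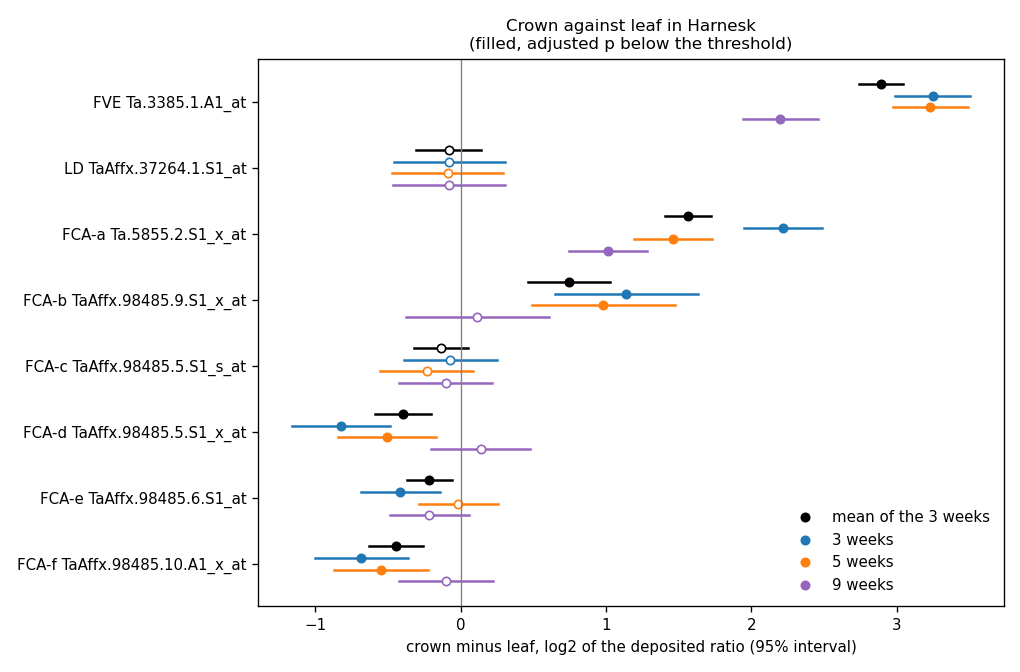
Crown minus leaf difference in Harnesk (log2 of the deposited ratio, with 95% interval) for each probe-set, as the mean of the weeks and at each week; filled points were called. FVE, FCA-a and FCA-b are to the right of 0 at every week. FCA-c, FCA-d, FCA-e and FCA-f have mean differences left of 0, that of FCA-c not called.

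With the weeks, the called members of the tissue comparison moved in leaf. From 3 to 9 weeks in Harnesk leaf, FVE rose from 0.28 ± 0.0085 to 0.501 ± 0.0042 (SD, n = 2), FCA-a from 0.338 ± 0.016 to 0.632 ± 0.066, and FCA-b from 0.634 ± 0.26 to 1.04 ± 0.018. Over the same time FCA-f fell from 1.65 ± 0.17 to 1.12 ± 0.17, FCA-d from 1.47 ± 0.24 to 0.988 ± 0.094, and FCA-e from 1.08 ± 0.035 to 0.825 ± 0.023. The probe-sets that were lower in leaf thus rose and those that were higher fell, each by less than 2-fold. Both comparisons use the same leaf arrays of 3 weeks, so these directions are not independent of the tissue calls.

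FVE rose by 0.84 (SE 0.12, adjusted p = 0.00017), a fold of 1.79, and its step came between 5 and 9 weeks, at 0.76 (adjusted p = 0.0005) after 0.08 between 3 and 5 weeks (adjusted p = 0.74). FCA-a rose by 0.90 (SE 0.12, adjusted p = 0.00014), a fold of 1.86, of which 0.55 fell between 3 and 5 weeks (adjusted p = 0.012) and 0.35 between 5 and 9 weeks (adjusted p = 0.06). FCA-b changed by 0.03 in the first interval (adjusted p = 0.949) and by 0.75 in the second (adjusted p = 0.029), and by 0.78 in all (adjusted p = 0.018). Its arrays of 3 weeks differed from each other by more than those of any other leaf pair of this probe-set, and its change over all weeks is 0.34 or 1.22 depending on which of them is left out. The fall in the other 3 was -0.56 for FCA-f (adjusted p = 0.011), -0.57 for FCA-d (adjusted p = 0.014) and -0.39 for FCA-e (adjusted p = 0.029). FCA-e was the only one of these with a called fall by 5 weeks, at -0.49 (adjusted p = 0.025). LD changed by -0.05 from 3 to 9 weeks (95% interval -0.44 to 0.33, adjusted p = 0.838) and FCA-c by -0.02 (95% interval -0.34 to 0.30, adjusted p = 0.914).

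Counted together, 6 of 8 were called from 3 to 9 weeks (3 higher, 3 lower), beside 33.9% of all probe-sets. Between 3 and 5 weeks 2 were called (10.9% of all), and between 5 and 9 weeks 2 (24.8%). These leaf changes were among the less stable values: with the arrays quantile normalised, the changes from 3 to 9 weeks were 0.33 for FVE (adjusted p = 0.0725), -0.40 for FCA-f (adjusted p = 0.0924), -0.38 for FCA-d (adjusted p = 0.153) and -0.29 for FCA-e (adjusted p = 0.254), so that 2 of 8 were called. The share of all probe-sets called after quantile normalisation was not taken. Other measures moved with the weeks in leaf. The interquartile range of log2 ratios over all probe-sets was 0.761 and 0.855 at 3 weeks, 0.706 and 0.727 at 5 weeks, and 0.536 and 0.581 at 9 weeks, and the mean ratio of the 10 leaf markers was 3.68 and 3.58, 3.36 and 3.21, and 2.31 and 2.39. The mean log2 difference between the 3′ and 5′ control probe-sets was -0.19 and -0.18, -0.24 and -0.22, and -0.33 and -0.29 at the same weeks, and 0.01, 0.11 and 0.27 in control leaf. The part of these measures in the changes of the members was not tested. The mean ratio of the 16 histone probe-sets in leaf was 0.15 and 0.145 at 3 weeks, 0.223 and 0.202 at 5 weeks, and 0.171 and 0.171 at 9 weeks, far below the 17.7 of the lowest crown array.

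In Harnesk crown, none of the 8 probe-sets was called between any of the weeks. Between 3 and 5 weeks none had even an unadjusted p below 0.05 (0.52% of all probe-sets were called). Between 5 and 9 weeks (7.25% of all called) 2 had an unadjusted p below 0.05, and from 3 to 9 weeks (11% of all called) 2. The methods' t-test asks for 2-fold, which no crown change of a member reached, so it could call none. From 3 to 9 weeks FVE went from 2.66 ± 0.2 to 2.3 ± 0.046 (SD, n = 2), a difference of -0.21 (SE 0.12, adjusted p = 0.322). The differences with the lowest p were those of FCA-a, at -0.31 (SE 0.12, adjusted p = 0.142), and FCA-d, at 0.39 (SE 0.16, adjusted p = 0.14). Both were called in a fit of the 6 crown arrays alone, at adjusted p = 0.0398 and 0.0397. The crown difference of LD was -0.06 (adjusted p = 0.896).

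The difference between the tissues was tested directly, as the leaf change minus the crown change from 3 to 9 weeks. It was 1.05 for FVE (SE 0.17, adjusted p = 0.00068), 1.21 for FCA-a (SE 0.17, adjusted p = 0.00036), 1.03 for FCA-b (SE 0.32, adjusted p = 0.029) and -0.96 for FCA-d (SE 0.22, adjusted p = 0.0064). These 4 of 8 stand beside 30.2% of all probe-sets called. For LD it was 0.00 (95% interval -0.54 to 0.55), while FCA-f came to -0.58 (adjusted p = 0.052) and FCA-e to -0.20 (adjusted p = 0.419). Within the shorter intervals 1 of 8 was called between 3 and 5 weeks (4.01% of all), FCA-a at 0.76 (adjusted p = 0.031), and 1 between 5 and 9 weeks (22% of all), FVE at 1.03 (adjusted p = 0.0012). With the arrays quantile normalised only FCA-d was still called from 3 to 9 weeks, with 0.10 for FVE (adjusted p = 0.711), 0.49 for FCA-a (adjusted p = 0.0601) and 0.67 for FCA-b (adjusted p = 0.0601). The call of FCA-a between 3 and 5 weeks was also lost in a fit without any single crown array.

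**Figure D3:**
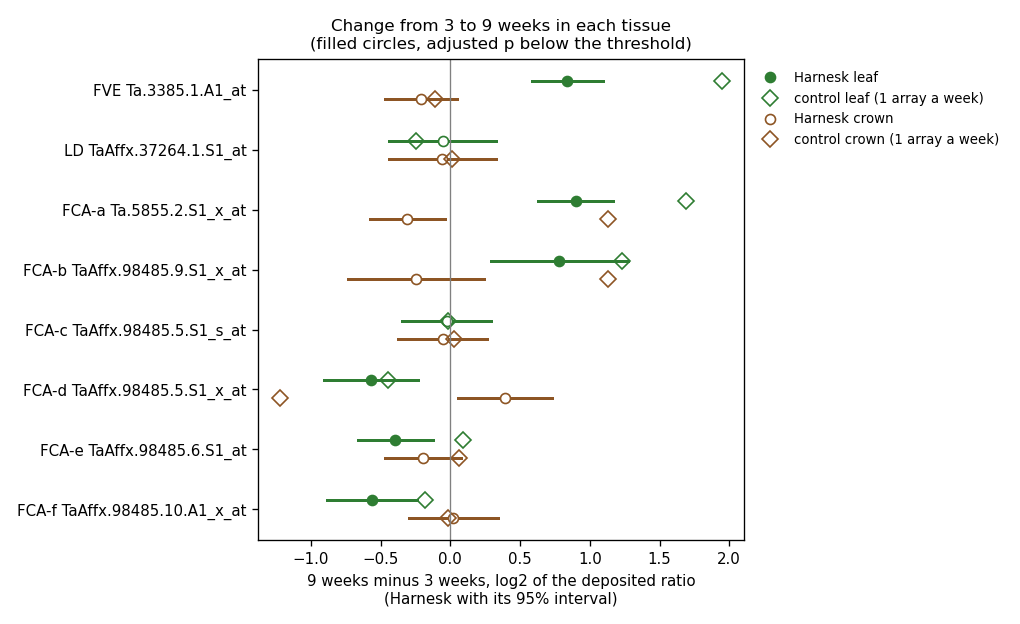
Change from 3 to 9 weeks (log2 of the deposited ratio) in leaf and crown. Circles are Harnesk with the 95% interval, filled where called, and diamonds are the difference of single control arrays. In Harnesk leaf 3 probe-sets rose and 3 fell, and no crown circle is filled.

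The control plants, which were kept warm, also held more FVE and FCA-a transcript in crown. FVE read 0.238, 0.330 and 0.919 in control leaf at 3, 5 and 9 weeks and 1.966, 2.601 and 1.818 in control crown. Each crown array was above each leaf array, and the mean difference was 2.34 (SE 0.44, adjusted p = 0.019). FCA-a read 0.480, 0.720 and 1.550 in leaf and 1.033, 1.406 and 2.264 in crown, higher in crown at each week, with a mean difference of 0.87 (SE 0.19, adjusted p = 0.031). FCA-b, with 0.584, 0.522 and 1.374 in leaf and 0.839, 1.174 and 1.838 in crown, was also higher in crown at each week, at 0.70 (adjusted p = 0.083). These 2 called members stand beside 20.1% of all probe-sets called in the control comparison. LD read 1.005, 0.928 and 0.848 in leaf and 0.941, 0.888 and 0.950 in crown, a mean difference of 0.00 (95% interval -0.42 to 0.43).

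Both control calls rest on few arrays. With 1 array per tissue and week, the test takes its spread from how the tissue difference varied between weeks, not from pools. For FVE that difference was 3.05, 2.98 and 0.98 at 3, 5 and 9 weeks. Without the leaf array of 9 weeks, which stood apart and was the highest leaf array for FVE and FCA-a, the differences were 3.01 (adjusted p = 0.0022) and 1.04 (adjusted p = 0.0473). Without the crown array of 3 weeks they were 1.98 (adjusted p = 0.0732) and 0.76 (adjusted p = 0.127).

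The controls saw the same light but no cooling, and their changes from 3 to 9 weeks were set against those of Harnesk. Since 1 control array stands for each tissue and week, these tests take their spread from the Harnesk pairs and assume that a lone array varies like them. In crown, FCA-a was higher at 9 than at 3 weeks by 1.13 in the controls, where Harnesk differed by -0.31, and the difference between those changes was -1.44 (SE 0.21, adjusted p = 0.00038). FCA-b likewise differed by 1.13 in the control crown and by -0.25 in Harnesk, at -1.38 (SE 0.39, adjusted p = 0.017). FCA-d went the other way, from 2.764 in the control crown of 3 weeks to 1.259 and 1.187 at 5 and 9 weeks, a difference between the changes of 1.61 (SE 0.27, adjusted p = 0.00081). These 3 of 8 stand beside 34% of all probe-sets called in this comparison. With the crown change taken from 5 to 9 weeks, which leaves out the control crown array of 3 weeks, the values were -0.79 (adjusted p = 0.042), -0.77 (adjusted p = 0.292) and 0.43 (adjusted p = 0.407). There 1 of 8 was called, beside 7.85% of all probe-sets. FVE did not show such a difference in crown, at -0.10 (95% interval -0.54 to 0.35).

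In leaf, both FVE and FCA-a were higher at 9 than at 3 weeks in the controls as well as in Harnesk, and by more. The control differences were 1.95 and 1.69, against 0.84 and 0.90 in Harnesk, and the differences between the changes were -1.11 (SE 0.20, adjusted p = 0.0033) and -0.79 (SE 0.21, adjusted p = 0.028). These 2 of 8 stand beside 13.5% of all probe-sets called. Both rest on the control leaf array of 9 weeks, which stood apart, and the spread of the control arrays themselves is not in the test. With the arrays quantile normalised the differences were -3.67 and -1.40, and without the second Harnesk leaf array of 9 weeks that of FCA-a was -0.69 (adjusted p = 0.0791). With the change taken from 3 to 5 weeks instead, the values were -0.39 (adjusted p = 0.354) and -0.03 (adjusted p = 0.966). No member was called, beside 5.85% of all probe-sets, while 1 had an unadjusted p below 0.05.

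Among the 6 FCA probe-sets, 2 followed each other over all Harnesk arrays and ran against the rest, but within crown the grouping was different. Over the 12 Harnesk arrays, Pearson's r of log2 ratios was 0.84 between FCA-a and FCA-b, and -0.87 to -0.44 between either of them and the other 4. Those 4 correlated with one another at 0.34 to 0.81. The arrays share their tissues, so these values mostly carry the leaf and crown difference. Within the 6 leaf arrays the pair correlated at 0.62, within the 6 crown arrays at 0.57 and over the 6 control arrays at 0.95. FCA-a correlated more closely with FCA-e within crown, at 0.85, although the value was -0.84 within leaf, and with FCA-c it was at 0.40 within crown and 0.41 over the controls. FCA-d and FCA-e correlated at -0.92 within crown and 0.61 within leaf. No FCA probe-set was called between weeks in crown, where FCA-e read only 0.671 to 0.854. The values within crown thus rest on small differences among 6 arrays, and replicate variation may carry much of them. Of the 15 pairs, 7 had r above 0 over all Harnesk arrays and within leaf, and 11 within crown. FCA-c and FCA-d, which share both cluster and member number, correlated at 0.53 over the Harnesk arrays, 0.47 in leaf, 0.09 in crown and -0.03 in the controls.

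**Figure D4:**
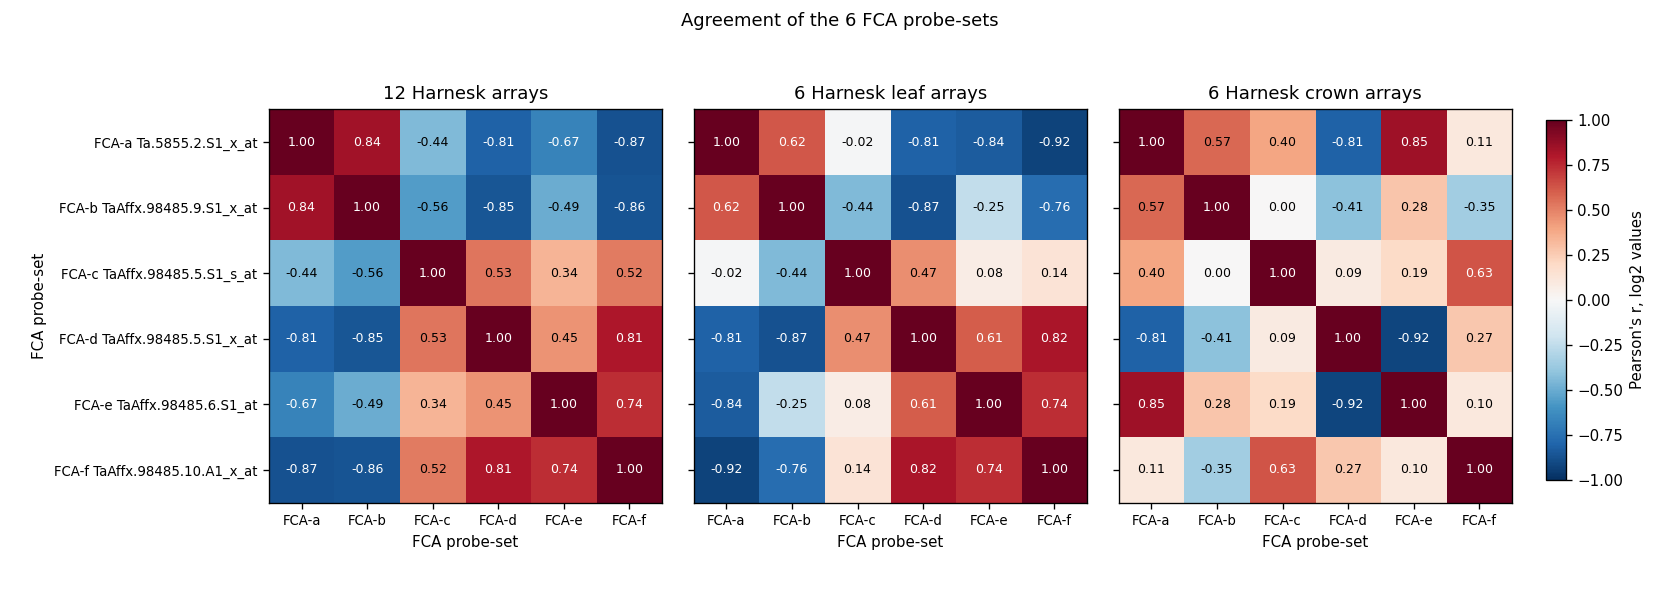
Pearson's r of log2 ratios between the 6 FCA probe-sets over all 12 Harnesk arrays and within the 6 leaf and 6 crown arrays. FCA-a and FCA-b correlate at 0.84, 0.62 and 0.57, and both are negative with the other 4 over the 12 arrays.

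The same transcript clusters hold 9 other probe-sets of the array, chosen here by cluster number and not in the study's list. In the crown and leaf comparison 4 of them were called higher in crown, 1 lower, and 4 were not called. Of all probe-sets, 30% were called higher and 44.2% lower. One of them, which carries the same gene symbol as FCA-a, was picked out after its values were seen: it correlated with FCA-a at 0.995 over the 12 Harnesk arrays, with a crown minus leaf difference of 1.63 (SE 0.07) and a leaf change from 3 to 9 weeks of 1.06. Another of the cluster of FCA-a, also picked out afterwards, correlated at 0.974, with differences of 0.96 and 0.86. The other 5 of that cluster did not follow FCA-a as closely, with 4 at -0.669 to -0.593 and 1 at 0.558.

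Many other transcripts shared the pattern of the members with a strong tissue difference. FVE had r above 0.9 with 9958 probe-sets over the 12 Harnesk arrays, FCA-a with 8790 and FCA-b with 832, whereas LD had none. The 3 most alike to FVE each reached 0.999, the 3 most alike to FCA-a 0.997, 0.996 and 0.996, and the 3 most alike to LD 0.879, 0.878 and 0.875, and none of these 9 carried a gene symbol. Among probe-sets with a gene symbol, the most like FCA-d was one for FBP, the Calvin cycle enzyme fructose-1,6-bisphosphatase, at 0.935.

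The other flowering pathways of the study's list gave 35 probe-sets for comparison. In the mean crown minus leaf difference, 13 were called higher in crown, 15 lower and 7 not. Among all probe-sets 30% were called higher and 44.2% lower, so that most of any list is called. In the vernalisation pathway 5 of 7 were called higher in crown and none lower, with both probe-sets for VIL2, a VIN3-like protein, at 2.46 and 2.01, that for VIL3, of the same family, at 1.69 and that for EMF2, a Polycomb protein in Arabidopsis, at 1.24. Of 4 gibberellin probe-sets none was called higher and 3 lower in crown, with 1 probe-set for GA2 at -1.80 and that for GA3 at -1.57, both enzymes of gibberellin synthesis in Arabidopsis. Photoperiod probe-sets were split, with 4 of 15 higher and 9 lower. PHYA, the photoreceptor phytochrome A, was at 2.70 and ESD4, a SUMO protease in Arabidopsis, at 1.27. The clock genes LHY (2 probe-sets, at -1.50 and -1.02), ELF3 (1 probe-set, at -1.29) and GI (-1.38) were lower in crown. PDF2 of the integrative group, at 1.45, and TFL1, which keeps the Arabidopsis meristem indeterminate, at 2.10, were also higher in crown.

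From 3 to 9 weeks in leaf, 14 of these 35 were called higher and 3 lower, beside 17% and 16.9% of all probe-sets. Their median was 0.29, beside -0.04 for the 8 autonomous probe-sets and -0.10 for all probe-sets. The highest values were those of GA2 (the same probe-set as above) at 3.00, GA3 at 2.09 and ESD4 at 1.65. In crown, 2 of 35 were called higher and 5 lower, beside 3.57% and 7.43% of all. The only ones past 2-fold were the 2 probe-sets for AP1, at 1.90 and 1.22. Another list of the study assigns both to a gene that it marks as a synonym of VRN1, the cereal vernalisation gene. For the leaf change minus the crown change, 15 of 35 were called higher and 3 lower, beside 17.4% and 12.8% of all. Among those called higher were 1 of the 2 probe-sets for LHY, ESD4 and VIL3, at 1.15, 1.19 and 1.55. Of 4 gibberellin probe-sets 2 were called higher. The crown minus leaf difference of GA2 (again the same probe-set) went from -0.70 at 3 weeks to -3.53 at 9 weeks, and that of GA3 from -0.74 to -2.71.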

How the data were processed

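Transcript abundance was measured on the Affymetrix Wheat Genome Array. Per the labels and methods, the authors extracted image data with the Affymetrix software, normalised each chip by RMA and divided each probe-set by its median in GeneSpring (the version of RMA is not given in the sources used here), and the deposited values are such ratios on a linear scale. Which arrays entered the median is not given. The lowest value is 0.01. The log2 of the deposited ratios was taken with no pseudocount and no further normalisation, and 111 control probe-sets were left out.

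One model with a mean for each condition was fitted to 18 arrays (12 Harnesk, 6 control) in limma 3.58.1 (lmFit, contrasts.fit, eBayes; R 4.3.3). A lone control array is thereby assumed to vary like the Harnesk pairs. Control crown against leaf was fitted to the 6 control arrays with week as a factor, so its spread is that of the tissue difference between weeks. The number of arrays limits the precision. In simulated data on 61179 probe-sets, 22.1% of 1.5-fold and 64.3% of 2-fold changes were found in the leaf comparison of 3 and 9 weeks. Only 68 probe-sets were given the 1.5-fold and 70 the 2-fold change, and nearly all others were held level. In the data 33.9% were called. The Benjamini-Hochberg adjustment depends on that share, so the simulated percentages do not give the share found in the data.

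All 8 members are named. Genes alike are the 3 with the highest r among all probe-sets, given by r where they carry no gene symbol, and among the 1273 with 1 gene symbol (59906 had none and 0 had several). Of the other flowering genes, those past 2-fold are named in part. Markers were matched by symbol or synonym, the latter chosen after the files were read. Members and lists were chosen with earlier results of these data known. Alternatives were a pseudocount of 0.05, a filter on low means, quantile normalisation, median centring, a variance trend, fits by tissue, a block for replicate number, the methods' t-test and leaving out arrays.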

Additional observations from a re-analysis of the deposited data

Results flagged for a closer look

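In 6 results the leaf and crown of Harnesk changed by different amounts, in a direct test of the difference. From 3 to 9 weeks, leaf change minus crown change was 1.05 for FVE, 1.21 for FCA-a, 1.03 for FCA-b and -0.96 for FCA-d. Between 5 and 9 weeks it was 1.03 for FVE, and between 3 and 5 weeks 0.76 for FCA-a. A further 5 results differed between Harnesk and the control plants in the change from 3 to 9 weeks. In leaf the differences were -1.11 for FVE and -0.79 for FCA-a. In crown they were -1.44 for FCA-a, -1.38 for FCA-b and 1.61 for FCA-d, where 1 control array stands for each week. Variety and cooling cannot be told apart in these 5. Of 16 sets of 6 Harnesk arrays of a tissue, searched for an array far from the others, 0 had one. Each set mixes arrays of different weeks, so the usual rate of such finds by chance does not hold. An odd array may therefore have gone unflagged.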

How the results depend on the processing

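Of 42 called values of single members, recomputed 845 times, 0 reversed and 116 lost the call. These counts include refits that could not move the estimate, such as those without an array of a condition outside the comparison. The filter on low means kept all 61179 probe-sets in the fit of 18 arrays, so it changed nothing there. FVE kept its call as higher in crown under all 21 alternatives (2.67 to 2.98), as did FCA-a (1.31 to 1.65). With quantile normalisation, 4 members in place of 2 were called between crown and leaf at 9 weeks, 0 in place of 2 in leaf from 3 to 5 weeks, 2 in place of 6 in leaf from 3 to 9 weeks, 1 in place of 0 in crown from 3 to 9 weeks, 0, 0 and 1 in place of 1, 1 and 4 for the leaf change minus the crown change (3 to 5, 5 to 9 and 3 to 9 weeks), and 0 in place of 2 between control crown and leaf. The cause was not tested. The share of all probe-sets called was not taken in these refits, so the counts of members called in them have no background beside them. With median centring 1 was called in leaf from 3 to 5 weeks. In fits of 6 arrays of a tissue 0, 1 and 2 were called in leaf (3 to 5, 5 to 9 and 3 to 9 weeks) and 2 in crown from 3 to 9 weeks. The methods' t-test, which asks for 2-fold, called 2, 2 and 2 between crown and leaf (mean, 3 and 5 weeks). In leaf over the intervals it called 0, 0 and 0, but no leaf change of a member reached 2-fold, so it could call none. These counts were the same at its own threshold and after Benjamini-Hochberg adjustment.

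When 1 Harnesk array was left out, 1 to 2 members were called in leaf from 3 to 5 weeks, 1 to 2 from 5 to 9 weeks and 3 to 6 from 3 to 9 weeks, 0 to 1 and 1 to 3 for the leaf change minus the crown change (3 to 5 and 5 to 9 weeks), and 1 to 2 for the leaf change of Harnesk minus that of the controls. Between control crown and leaf 0 to 2 were called when a week was left out, 0 without week 3 or week 5 and also without the crown array of 3 weeks, and 4 with the spread taken from all 18 arrays. Chosen after seeing the data, the change to 5 weeks in place of 9 gave 0 in leaf against the controls, and the change from 5 weeks in place of 3 gave 1 in crown. Replicate numbers did not pair the arrays, since 0 of 15 pairs of conditions had deviations correlated above 0.1 (-0.0942 to 0.0707). A replicate block added 1 call, FCA-f for the leaf change minus the crown change from 3 to 9 weeks (-0.58, adjusted p = 0.0302). Brightness over background was not analysed here, since the ratios do not hold it.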
